A study of Mus musculus with 9 samples.

Results

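Kitl and Kit are a ligand and its receptor, taken here as a pair of genes chosen by name, 2 of the 55536 genes in the files, and both were among the 16213 genes that passed the filter on low counts. RNA was measured by sequencing in 9 mouse ovary samples, 3 in each of 3 groups. The tumour samples were ovaries with a granulosa cell tumour from mice with 1 mutated and 1 normal copy of the gene (FOXL2 WT/C134W). The hyperplasia samples had the same genotype (FOXL2 WT/C134W) and an overgrowth labelled as hyperplasia, and the wild-type ovaries carried FOXL2 WT/WT. FOXL2 is a forkhead transcription factor that keeps granulosa cells, the support cells around the oocyte, in their identity, and C134W is the amino acid change typical of adult granulosa cell tumours in women. The labels give no age, strain or treatment, do not say how the change was introduced or in which cells, and do not say which samples came from which animal. Tumour library 3 and hyperplasia library 3 share a title stem (A491i and A491d), and p-values here describe the spread between these libraries alone. The question set by the series is how gene expression in such tumours departs from normal ovaries.

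Kit ligand, also called stem cell factor, is made by granulosa cells, and KIT is the receptor tyrosine kinase that binds it. In the ovary the best known carriers of KIT are oocytes and theca cells, the steroid-making layer outside the follicle, and signalling between ligand and receptor is needed for germ cell survival and for oocytes to begin and sustain growth. Bound KIT recruits adaptors and Src kinases and passes the signal to PI3K and AKT, to RAS and MAPK and to STAT factors, and in oocytes AKT holds the forkhead factor FOXO3 out of the nucleus. Mast cells, melanocytes and the pacemaker cells of smooth muscle also carry KIT. Whole ovaries were sequenced, so a lower level can come from fewer cells of a type or from less RNA per cell, and these cannot be told apart.

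Kitl (ENSMUSG00000019966) lies on the plus strand of GRCm38 chromosome 10, from 100015630 to 100100416, with 6 annotated transcripts of which 4 are protein coding. Kit (ENSMUSG00000005672) lies on the plus strand of chromosome 5, from 75574916 to 75656722, with 8 annotated transcripts of which 2 are protein coding. No other annotated gene overlaps either of them. Both genes make protein forms that differ by a short stretch, and these stretches are shown because the deposited gene lengths, described with the results, depend on which transcripts were counted. Each stretch is shown as read from the transcripts of the reference annotation, with 30 bases of the neighbouring exons on each side in lower case. In Kitl the capitals mark exon 6 of Kitl-202 (84 bases, chr10:100080857-100080940). It encodes the main site at which proteases cut the ligand free from the membrane, and Kitl-201, which lacks it, encodes the form that mostly stays on the cell surface.
Kitl-202: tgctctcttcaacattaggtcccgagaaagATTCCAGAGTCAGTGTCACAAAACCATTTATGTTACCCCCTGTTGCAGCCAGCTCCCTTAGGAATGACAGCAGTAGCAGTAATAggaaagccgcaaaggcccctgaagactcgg
Kitl-201: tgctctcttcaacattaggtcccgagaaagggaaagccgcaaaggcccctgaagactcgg
In Kit the capitals mark the 12 bases at the end of exon 9 that Kit-201 has and Kit-204 lacks (chr5:75639147-75639158). They encode a short insert just outside the membrane, and both forms bind the ligand.
Kit-201: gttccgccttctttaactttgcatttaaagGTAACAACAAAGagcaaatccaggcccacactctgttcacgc
Kit-204: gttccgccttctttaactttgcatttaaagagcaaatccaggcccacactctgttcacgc

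The libraries held 11661851 to 20890537 counts on genes, and mitochondrial genes took 2.54% to 4.18% of them. The unit of level is CPM, the count of a gene relative to its library after TMM scaling, a correction for library composition. Which of 2 genes had the higher level is read only in TPM, which also divides by transcript length. Ratios of CPM between genes are compared only from library to library. 2 libraries differed from the rest of their groups, wild-type library 1 and tumour library 2, whose deposited FPKM values summed to 885105 and 839855, against 616923 to 660739 in the other 7 libraries. Foxl2, the mutated gene, was detected in all 9 libraries, but gene counts sum both alleles and do not check the genotype. Granulosa cell marker RNA was present in every library, with 12 of 12 markers detected in each group. Summed levels were 5453 to 7205 CPM in tumours, 1615 to 5401 CPM in hyperplasia and 2527 to 6528 CPM in wild type. Single markers could be absent, as in tumour library 2, with 0.0 CPM of Fshr and 0.098 CPM of Amh. Inha and Gja1 gave 2820 and 1531 CPM of the 5679 CPM in that library.

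Kitl was expressed in every ovary and was highest in individual mutant samples, but neither mutant group differed from wild type beyond the spread between libraries. Tumour libraries 1, 2 and 3 had 195, 119.9 and 414 CPM of Kitl. Hyperplasia libraries 1, 2 and 3 had 244, 130.05 and 321 CPM. Wild-type libraries 1, 2 and 3 had 123, 144 and 148 CPM. The mutant samples therefore ran from below the lowest wild-type ovary to well above the highest, and the groups overlapped. The highest values of the tumour and of the hyperplasia group were those of the 2 libraries with the shared title stem. The mean was 243 ± 153 CPM in tumours, 232 ± 95.9 CPM in hyperplasia and 138 ± 13.7 CPM in wild type (SD, n = 3 each). The coefficient of variation was 62.9% in tumours, 41.4% in hyperplasia and 9.91% in wild type. In the order of the means, tumours stood above hyperplasia and hyperplasia above wild type, and neither pair of neighbours differed beyond its spread.

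Kit was also detected in every ovary, and its largest value was that of a wild-type sample. Tumour libraries 1, 2 and 3 had 54.1, 21.1 and 33.9 CPM of Kit. Hyperplasia libraries 1, 2 and 3 had 50.7, 19.3 and 47.0 CPM. Wild-type libraries 1, 2 and 3 had 24.8, 26.5 and 87.5 CPM. Wild-type library 3 was thus the highest of all 9, while the other 2 wild-type ovaries lay below 4 of the 6 mutant samples, and the groups overlapped. The mean was 36.4 ± 16.6 CPM in tumours, 39.0 ± 17.2 CPM in hyperplasia and 46.3 ± 35.7 CPM in wild type (SD, n = 3 each). The order of the means was wild type, hyperplasia and tumours from high to low, and no neighbours in it differed beyond their spread. Across the 9 libraries the highest level was 4.54 times the lowest for Kit and 3.46 times the lowest for Kitl. These values rest on 216 to 1522 counts per library for Kit and on 1229 to 6690 counts for Kitl, so counting error was small beside the differences between samples of 1 group.

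**Figure D1:**
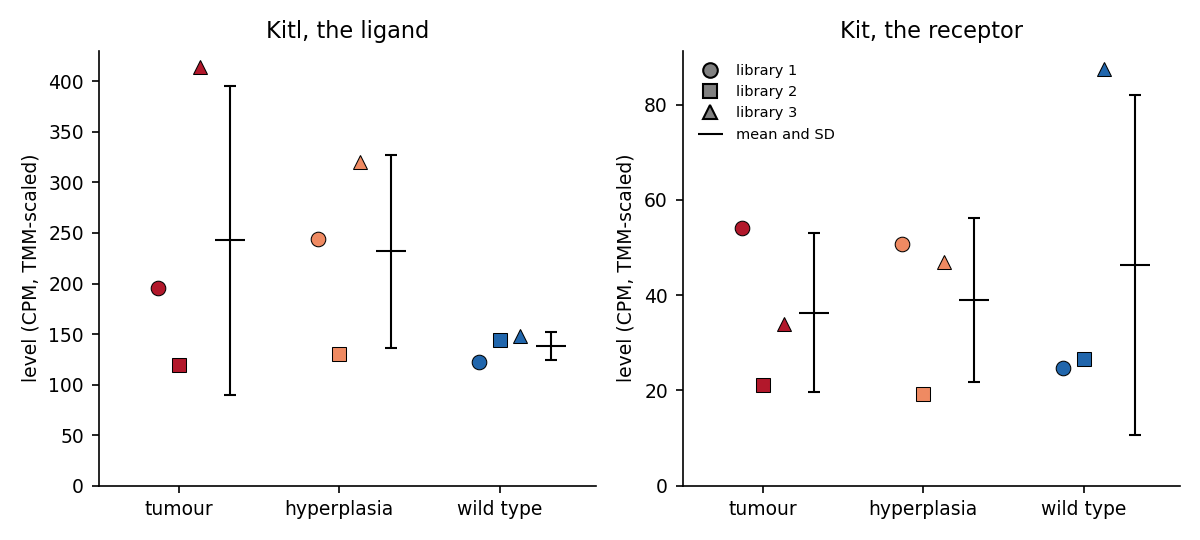
Level of Kitl (left) and Kit (right) in CPM for each library, by group, with the mean and SD of each group beside its points and the library number shown by the symbol. Kitl spans 119.9 to 414 CPM in the 3 tumours and 123 to 148 CPM in the 3 wild-type ovaries, and Kit is highest in wild-type library 3 at 87.5 CPM.

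Neither gene passed the test in any of the 4 comparisons. In the fit over all genes tested, 1.6% of genes were called in tumour against wild type, 0.0% in hyperplasia against wild type, 0.185% in tumour against hyperplasia and 0.0123% in all mutant samples against wild type. The 0.0% stands for 0 genes, with 572 genes (3.53%) at an unadjusted p under 0.05 in the edgeR quasi-likelihood test and 18 genes called by DESeq2. The 4 comparisons share libraries, so their values are not independent of each other. For Kitl in tumours against wild type the log2 fold change was 0.81 (SE 0.46, 95% interval -0.23 to 1.85), with 6 of 9 pairs of libraries higher in the tumour (edgeR's quasi-likelihood test with Benjamini-Hochberg adjustment, adjusted p = 0.367). In hyperplasia against wild type it was 0.74 (SE 0.46, interval -0.29 to 1.78), with 7 of 9 pairs higher in hyperplasia (edgeR adjusted p = 0.999). In tumours against hyperplasia it was 0.07 (SE 0.46, interval -0.96 to 1.10; edgeR adjusted p = 0.963). All 6 mutant samples against wild type gave 0.78 (SE 0.41, interval -0.15 to 1.70), with 13 of 18 pairs higher in the mutant sample (edgeR unadjusted p = 0.0895, adjusted p = 0.512). These intervals include no change and also include a level of Kitl more than 1 log2 unit higher in mutant ovaries.

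Single libraries moved the Kitl values. Without tumour library 3 the log2 fold change of tumours against wild type was 0.19, and without tumour library 2 it was 1.14. Without hyperplasia library 3 that of hyperplasia against wild type was 0.44. With a term for the shared title stem, the values were 0.29 for tumours, 0.34 for hyperplasia and 0.32 for all mutant samples against wild type.

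For Kit the log2 fold change was -0.35 in tumours against wild type (SE 0.58, interval -1.64 to 0.95), with 4 of 9 pairs higher in the tumour (edgeR's quasi-likelihood test with Benjamini-Hochberg adjustment, adjusted p = 0.788). It was -0.25 in hyperplasia against wild type (SE 0.58, interval -1.54 to 1.05; edgeR adjusted p = 0.999) and -0.10 in tumours against hyperplasia (SE 0.58, interval -1.40 to 1.20; edgeR adjusted p = 0.958). All mutant samples against wild type gave -0.30 (SE 0.49, interval -1.41 to 0.81; edgeR adjusted p = 0.864). The sign of the 3 values against wild type turned without wild-type library 3, to 0.51 for tumours, 0.61 for hyperplasia and 0.56 for all mutant samples, and these did not pass the test either.

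**Figure D2:**
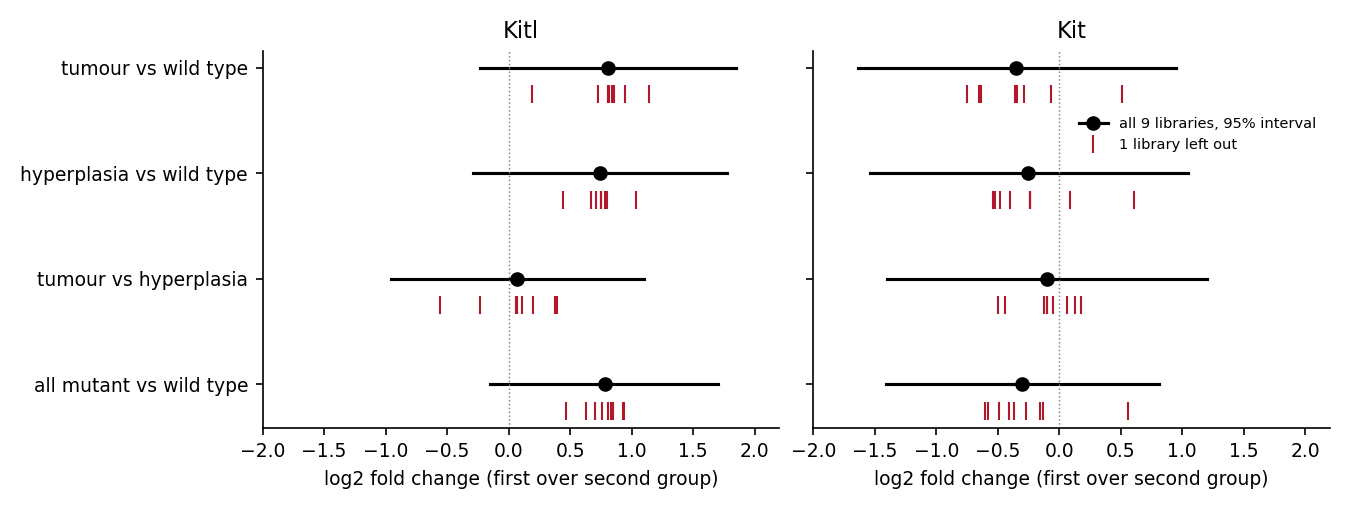
Log2 fold change of Kitl (left) and Kit (right) in the 4 comparisons, first over second group, with its 95% interval (black) and the values when 1 library was left out (red ticks). All intervals include 0, and the red ticks of Kit lie on both sides of 0, from -0.75 to 0.51 for tumours against wild type.

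Measured per transcript length, ligand RNA exceeded receptor RNA in all 9 ovaries. Kitl had 87.7, 29.9 and 140.4 TPM in tumour libraries 1, 2 and 3, against 88.1, 46.1 and 103.7 TPM in hyperplasia and 24.6, 49.6 and 55.8 TPM in wild type. Kit had 18.5, 4.05 and 12.8 TPM in the tumour libraries, against 25.2, 6.45 and 17.0 TPM in hyperplasia and 8.33, 9.13 and 30.5 TPM in wild type. By TPM, Kitl stood between the 71.1 and 93.8 percentiles of the tested genes and Kit between the 32.5 and 67.5 percentiles. Tumour library 2 had the lowest Kit of the 9 libraries on this scale and the lowest Kitl of the mutant samples.

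The ratio of Kitl TPM to Kit TPM within a library does not depend on how libraries are scaled against each other. It was 4.75, 7.38 and 11.0 in tumour libraries 1, 2 and 3, against 3.49, 7.15 and 6.10 in hyperplasia and 2.95, 5.44 and 1.83 in wild type. The tumour libraries held the 2 highest ratios and the wild-type ovaries the 2 lowest, with wild-type library 2 above the lowest tumour and the lowest hyperplasia sample. On the log2 scale the mean ratio was 2.86 ± 0.61 in tumours, 2.42 ± 0.54 in hyperplasia and 1.62 ± 0.79 in wild type (SD, n = 3 each). The difference was 1.24 between tumours and wild type (exact permutation test, two-sided, p = 0.2) and 0.79 between hyperplasia and wild type (exact p = 0.2), where 3 against 3 cannot go below 0.1. Between tumours and hyperplasia it was 0.45 (exact p = 0.4). For all 6 mutant samples against wild type it was 1.02 (exact p = 0.0714, smallest possible 0.0238), and the Benjamini-Hochberg adjusted value over the 4 comparisons was 0.267. From counts in place of TPM, the difference was 0.82 in tumours and 0.79 in all mutant samples against wild type, and only 0.06 between tumours and hyperplasia. Without wild-type library 3 the differences from wild type were 0.86 for tumours, 0.42 for hyperplasia and 0.64 for all mutant samples.

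Kitl was also set against Foxl2, as a gene of the same granulosa cells. The ratio of Kitl CPM to Foxl2 CPM was 0.728, 0.528 and 1.07 in tumour libraries 1, 2 and 3, against 1.33, 1.01 and 0.946 in hyperplasia and 0.604, 0.989 and 0.832 in wild type. Tumours and wild type covered nearly the same range, and hyperplasia lay at its upper end and above it. The difference of the mean log2 ratio from wild type was -0.09 in tumours (exact permutation test, p = 0.8) and 0.45 in hyperplasia (exact p = 0.2). Between tumours and hyperplasia it was -0.54 (exact p = 0.3). Foxl2 itself averaged 294 CPM in tumours, 217 CPM in hyperplasia and 176 CPM in wild type.

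**Figure D3:**
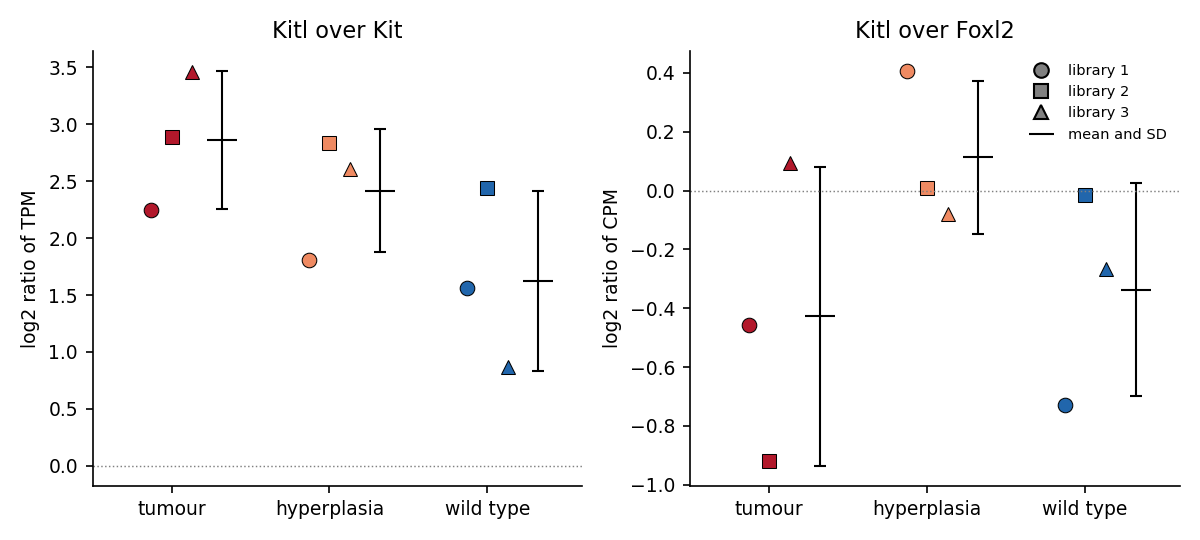
Log2 ratio of Kitl to Kit in TPM (left) and of Kitl to Foxl2 in CPM (right) for each library, by group, with mean and SD. The Kitl to Kit ratio averages 2.86 in tumours, 2.42 in hyperplasia and 1.62 in wild type with overlapping groups, and the Kitl to Foxl2 ratio is lowest in tumour library 2.

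Kit was next set against the markers of the oocyte, its best known carrier. The part of oocytes in the Kit level was not tested. The 12 oocyte markers summed to 3.04, 5.17 and 1.76 CPM in tumour libraries 1, 2 and 3, against 96.2, 23.3 and 4.99 CPM in hyperplasia and 220.3, 165.7 and 212 CPM in wild type. Most of the tumour sum was Gdf9, at 1.92, 4.58 and 1.18 CPM, which was not called (edgeR adjusted p = 0.0537 for tumours against wild type). Oocyte marker RNA was thus near 0 in the tumours, with Zp2, Oosp1, Nlrp5 and Zar1 at 0 counts in all 3, while wild-type ovaries formed a group far above them. Kit had 21.1 to 54.1 CPM in those tumours. The ratio of Kit CPM to the summed oocyte CPM was 17.8, 4.08 and 19.2 in the tumour libraries. It was 0.527, 0.829 and 9.42 in hyperplasia and 0.113, 0.160 and 0.412 in wild type. Every tumour lay above every wild-type ovary, but the fall of the oocyte sum alone raises such a ratio. Kitl over the same sum gave 64.1, 23.2 and 235 in tumours and 0.557, 0.872 and 0.698 in wild type. The separation is therefore not particular to Kit. Hyperplasia library 3, with oocyte markers near the tumour level, also had 47.0 CPM of Kit.

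In tumours against wild type 8 of the 12 oocyte markers were called lower, beside 1.25% of all genes tested. These were Zp1, Zp2 and Zp3 of the zona pellucida, Ddx4 and Dazl, which mark germ cells, and Zar1, Npm2 and Dppa3, which are stored for the embryo. All 8 lay near 0 in tumours and passed the low-count filter through the wild-type group. For them only a fall could be called. No such call remained when any 1 wild-type or tumour library was left out. Zp1 had 0.105 ± 0.025 CPM in tumours and 11.73 ± 1.05 CPM in wild type (edgeR's quasi-likelihood test with Benjamini-Hochberg adjustment, adjusted p = 0.0404). Zp3 had 0.121 ± 0.106 CPM in tumours and 20.7 ± 4.0 CPM in wild type (edgeR adjusted p = 0.0471). The median log2 fold change of the list was -7.43, or -7.13 with the genes at 0 counts set to a floor of 3 counts over the group, beside 0.01 for all genes tested. All 12 lay below wild type in every tumour, as did 13.4% of all genes tested. In hyperplasia against wild type none of the 12 was called, all 12 lay below wild type in every sample, as did 5.18% of all genes tested, and the median was -2.28.

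Mast cells, which carry much KIT, were also scarce by their markers in tumours. The 8 mast cell markers summed to 19.5, 15.1 and 27.8 CPM in tumour libraries 1, 2 and 3, against 44.6, 62.7 and 43.1 CPM in hyperplasia and 73.6, 100.8 and 22.4 CPM in wild type. Most of the tumour sum was Hdc, which makes histamine and is not confined to mast cells, at 19.4, 14.7 and 25.9 CPM. Fcer1a and Mrgprb2, receptors of mast cells, were at 0 counts in the tumours. They were also low in wild type, at 0.057 to 1.94 CPM for Fcer1a and 0.0 to 1.119 CPM for Mrgprb2. Ms4a2, another marker of the list, had 0.084 CPM in tumour library 3. Mrgprb2 and Ms4a2 were too low to be tested. The granule proteases Mcpt4, Tpsb2 and Cma1, 3 of the 6 tested, were called lower in tumours against wild type, beside 1.25% of all genes tested. Wild-type library 3 had only 0.862, 1.61 and 1.78 CPM of them. These 3 also lay near 0 in tumours and passed the low-count filter through the other groups. Their calls too were lost when any 1 wild-type or tumour library was left out. Cma1 had 0.145 ± 0.173 CPM in tumours and 8.63 ± 6.59 CPM in wild type (edgeR adjusted p = 0.0404). Tpsb2 had 0.339 ± 0.367 CPM in tumours and 10 ± 7.35 CPM in wild type (edgeR adjusted p = 0.0496). Of the 6 markers tested, the median log2 fold change was -5.22, or -4.79 with the gene at 0 counts at its bound. Wild-type library 3, with the most Kit, had the smallest mast cell sum of its group.

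Theca cells, the other ovarian carriers, were mixed. The 8 theca and interstitial markers summed to 1665 to 3001 CPM in tumours, 3932 to 8307 CPM in hyperplasia and 6809 to 12380 CPM in wild type. Cyp11a1, which starts steroid synthesis and is also made by luteal cells, gave 459 to 1042 CPM of this in tumours, 1959 to 6632 CPM in hyperplasia and 5248 to 9573 CPM in wild type. Cyp11a1 fell, with 714 ± 298 CPM in tumours and 6785 ± 2419 CPM in wild type (edgeR adjusted p = 0.0404). The other 7 theca markers did not pass the test. Cyp17a1, the androgen-making enzyme of theca cells, had 115, 263 and 29.1 CPM in tumour libraries 1, 2 and 3, against 267, 1.304 and 18.2 CPM in hyperplasia and 49.6, 1.41 and 268 CPM in wild type. The highest Cyp17a1 of the wild-type and hyperplasia groups stood in the library with the highest Kit of that group. Hhip and Aldh1a1 did the same, Insl3, Lhcgr and Gli1 in only 1 of these groups, and Ptch1 and Cyp11a1 in neither. In the tumours none of the 8 was highest in library 1, which had the most Kit. Tumour library 2 had the most Cyp17a1 and the least Kit of the tumours. The list thus showed no common order with Kit.

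The lists for smooth muscle with its pacemaker cells and for endothelium gave no called marker, and no melanocyte marker could be tested. The 5 melanocyte markers summed to 0.397 to 3.32 CPM in tumours, 0.375 to 1.01 CPM in hyperplasia and 0.23 to 0.547 CPM in wild type, too low to be tested. Most of the tumour sum was Tyrp1, at 0.331, 2.05 and 1.09 CPM in tumour libraries 1, 2 and 3. It had 0.054, 0.145 and 0.288 CPM in hyperplasia and 0.0 CPM in each wild-type library. The 6 markers of smooth muscle and of its pacemaker cells summed to 415 to 898 CPM in tumours, 1972 to 4696 CPM in hyperplasia and 978 to 1953 CPM in wild type. Among them Des, a muscle filament, had 14.9 ± 10.9 CPM in tumours and 103 ± 71.7 CPM in wild type (edgeR adjusted p = 0.119). Ano1, a chloride channel that marks the pacemaker cells, lay the other way, with 168, 143 and 138 CPM in tumour libraries 1, 2 and 3, against 67.9, 52.4 and 155 CPM in hyperplasia and 45.0, 66.1 and 100.1 CPM in wild type. All 3 tumours lay above all wild-type ovaries, as did 10.6% of all genes tested, with a log2 fold change of 1.09 (SE 0.42, edgeR adjusted p = 0.196). The 6 endothelial markers summed to 233 to 495 CPM in tumours, 294 to 451 CPM in hyperplasia and 388 to 407 CPM in wild type. Tek, an endothelial receptor kinase, had 14.2 ± 3.91 CPM in tumours and 36.7 ± 2.53 CPM in wild type (edgeR adjusted p = 0.061). The part of these cells, of mast cells or of theca cells in the Kit level was not tested.

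**Figure D4:**
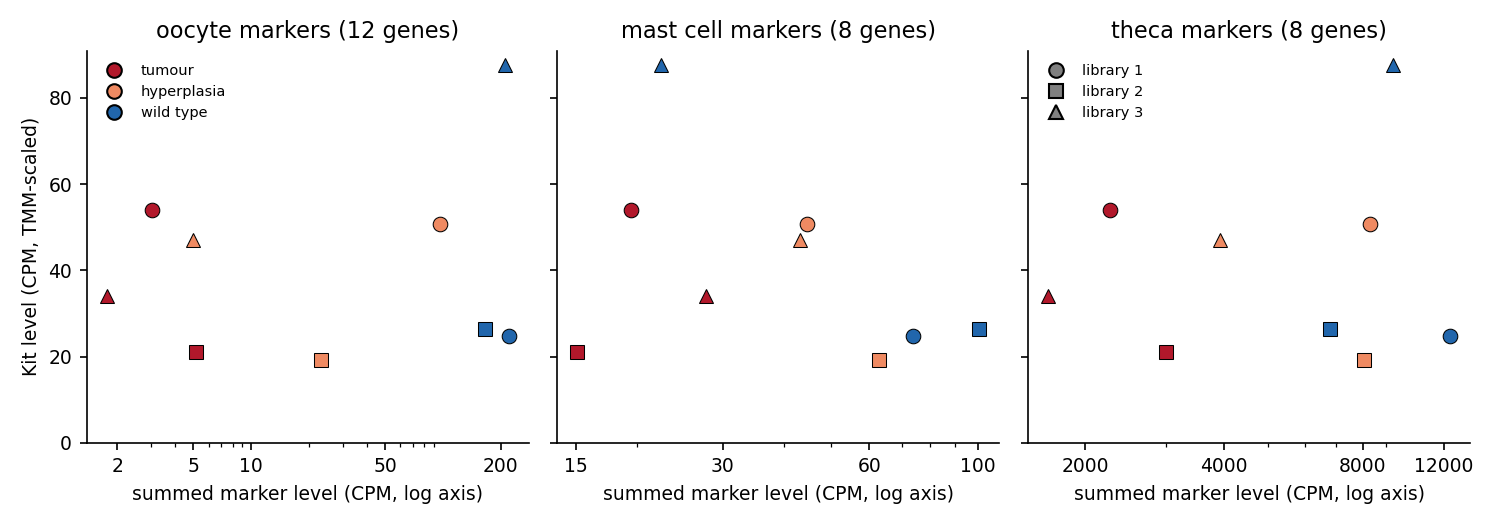
Kit level in CPM against the summed CPM of oocyte, mast cell and theca markers (log axes), 1 point for each library, coloured by group with the library number shown by the symbol. The 3 tumours lie at 1.76 to 5.17 CPM of oocyte markers and at 21.1 to 54.1 CPM of Kit, and wild-type library 3 lies highest in all 3 panels.

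Granulosa cell markers, for the side that makes the ligand, gave no call in any comparison, and their median log2 fold change was 0.38 in tumours and -0.28 in hyperplasia against wild type. Esr2, the estrogen receptor of granulosa cells, had 192 ± 35.1 CPM in tumours, 82.1 ± 32.9 CPM in hyperplasia and 57.6 ± 21.2 CPM in wild type (edgeR adjusted p = 0.0574 for tumours against wild type). Amh, the hormone of growing follicles, had 7.81, 0.098 and 39.4 CPM in tumour libraries 1, 2 and 3, against 12.4, 6.59 and 16.3 CPM in hyperplasia and 222, 221 and 211 CPM in wild type (edgeR adjusted p = 0.121). Over the 7 marker lists, 12 of 50 tested genes were called lower in tumours against wild type and none higher. Of all genes tested, 1.25% were called lower and 0.352% higher. Apart from Cyp11a1, the called markers lay near 0 in tumours and passed the low-count filter through the other groups. For those only a fall could be called, so the lack of a rise among them carries no weight.

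The deposited gene length is a mean over transcripts weighted by their estimated shares, and for Kitl it varied between samples. It was 3538, 3999 and 4967 bases in tumour libraries 1, 2 and 3, against 4824, 4911 and 5104 bases in hyperplasia and 5638, 5169 and 4629 bases in wild type. Tumour libraries 1 and 2 had the 2 lowest values of the 9, and tumour library 3 lay within the wild-type range. Of the annotated transcripts, Kitl-202 is 5648 bases long and the longest of the others 1405 bases, so a mean length sets limits on the share of Kitl-202. These limits were 50.3% to 60.01%, 61.1% to 68.7% and 83.9% to 87.1% in the tumour libraries. They were 80.6% to 84.4%, 82.6% to 86.02% and 87.2% to 89.7% in hyperplasia, and 99.77% to 99.82%, 88.7% to 90.9% and 76.0% to 80.7% in wild type. The mean length differed by -978 bases between tumours and wild type (exact permutation test, two-sided, p = 0.2) and by -589 bases between all mutant samples and wild type (exact p = 0.214). Kitl-201, at 1260 bases, lacks exon 6 and also ends earlier than Kitl-202, and the other annotated transcripts are shorter than the full coding form or are not coding, so these lengths do not measure exon 6 itself. A shorter weighted length gives a higher TPM for the same counts.

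For Kit the weighted length was 4599, 5131 and 4504 bases in tumour libraries 1, 2 and 3, against 3551, 5195 and 4583 bases in hyperplasia and 3447, 5159 and 4986 bases in wild type. The lowest values came from wild-type library 1 and hyperplasia library 1. Kit-201 and Kit-204, the coding transcripts, are 5214 and 5241 bases long and cannot be told apart by length, and the 6 others are annotated as retained introns of 354 to 3175 bases. The share of the coding transcripts therefore lay between 13.2% and 63.6% in wild-type library 1 and between 18.2% and 65.8% in hyperplasia library 1, and at or above 64.3% in the other 7 libraries. The mean length differed by 214 bases between tumours and wild type (exact permutation test, p = 0.9).

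**Figure D5:**
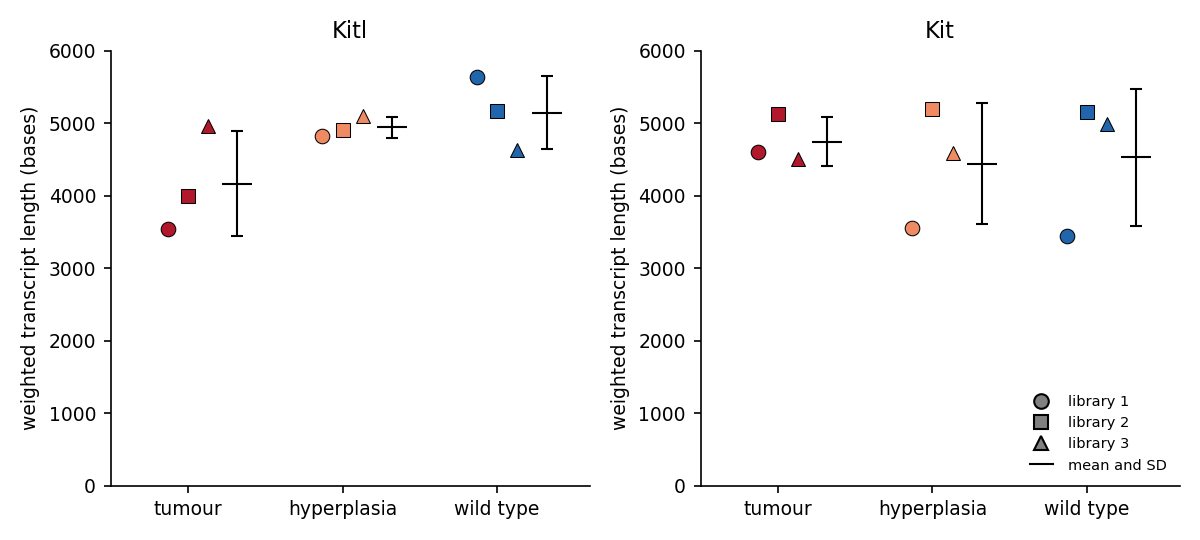
Isoform-weighted transcript length in bases of Kitl (left) and Kit (right) for each library, by group, with mean and SD, from the deposited length column. Kitl is lowest in tumour libraries 1 and 2, at 3538 and 3999 bases, and Kit is lowest in wild-type library 1 and hyperplasia library 1.

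The genes that act around the pair were counted in 10 lists of 87 distinct genes, 84 of them tested. In tumours against wild type none rose and 2 fell, which is 2.38% of those tested beside 1.25% of all genes tested. With only 2 genes called, this share cannot be told from the background. By unadjusted p under 0.05 in the edgeR test, 26 of the 84 passed in this comparison (31.0%). Of all 16213 genes tested, 3262 did so, a smaller share. In the other 3 comparisons none was called by edgeR. An unadjusted p under 0.05 was found for 4 of the 84 in hyperplasia against wild type (4.76%, beside 3.53% of all genes tested), for 18 in tumours against hyperplasia (21.4%, beside 14.1%) and for 13 in all mutant samples against wild type (15.5%, beside 11.8%). Of the 131 tested genes of these and the marker lists together, DESeq2 called 0, 22 and 22 in those 3 comparisons. The median log2 fold change over these genes was -0.02 in tumours against wild type, beside 0.01 for all genes tested. The 2 that fell were 1 of the 5 tested transcription factors known to act on Kit and 1 of the 9 partners of oocyte and granulosa cells: Lhx8, a factor of young oocytes, and Gja4, a gap junction protein between the oocyte and granulosa cells and also of vessels. Lhx8 had 0 counts in all 3 tumours, against 0.375, 0.217 and 0.048 CPM in hyperplasia libraries 1, 2 and 3 and 1.84, 1.35 and 1.90 CPM in wild type (edgeR adjusted p = 0.0404 for tumours against wild type). It passed the low-count filter through the wild-type group alone, so only a fall could be called. Gja4 had 5.16, 5.95 and 4.54 CPM in the tumour libraries, against 11.3, 11.95 and 6.76 CPM in hyperplasia and 34.9, 15.8 and 14.5 CPM in wild type. Its log2 fold change in tumours against wild type was -2.06 (SE 0.41, edgeR adjusted p = 0.0471). Both fell in the same comparison as the oocyte markers, and whether Gja4 followed the oocytes or the vessels was not tested. These 2 calls and the 12 marker calls were all lost, leaving 0 of the lists' genes called, without any 1 of the wild-type or tumour libraries, without hyperplasia library 2, and with the term for the shared stem.

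Among the receptors related to KIT, none of 4 was called. Pdgfra, the receptor for platelet-derived growth factor A, had 805, 351 and 915 CPM in tumour libraries 1, 2 and 3, against 320, 475 and 861 CPM in hyperplasia and 95.4, 447 and 332 CPM in wild type. Its log2 fold change in tumours against wild type was 1.24 (SE 0.60, edgeR adjusted p = 0.29). Csf1r, the macrophage growth factor receptor, had 36.2 ± 6.73 CPM in tumours and 60.8 ± 16.8 CPM in wild type (edgeR adjusted p = 0.15). Pdgfrb stood at 93.5 ± 14.2 CPM in tumours and 164 ± 58.6 CPM in wild type (edgeR adjusted p = 0.214), and Flt3 at or below 2.83 CPM in every library. Of the 7 ligands of these receptors none was called. Pdgfc was high in 1 tumour. The tumour libraries had 169, 6.92 and 26.5 CPM of it, against 30.7, 35.6 and 37.8 CPM in hyperplasia and 30.6, 42.6 and 63.3 CPM in wild type. Csf1 stood at 15.4 ± 2.81 CPM in tumours and 21.9 ± 4.84 CPM in wild type (edgeR adjusted p = 0.351).

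None of the 4 proteases that can release Kit ligand from the membrane was called. Adam17 had 116, 146 and 117 CPM in tumour libraries 1, 2 and 3, against 98.9, 104.5 and 100.2 CPM in hyperplasia and 69.5, 107 and 100.1 CPM in wild type. All 3 tumours lay above all wild-type ovaries, as did 10.6% of all genes tested, with a log2 fold change of 0.45 (SE 0.21, edgeR adjusted p = 0.276). Adam19 had 9.06 ± 3.16 CPM in tumours and 33.5 ± 20.0 CPM in wild type (edgeR adjusted p = 0.12). Mmp9, known to release the ligand in bone marrow, had 7.08, 1.56 and 19.3 CPM in tumours, against 10.1, 9.64 and 30.3 CPM in hyperplasia and 4.82, 10.1 and 5.001 CPM in wild type.

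Among the adaptors and kinases that bind activated KIT, none of 13 was called. Src had 93.6, 148 and 76.4 CPM in tumour libraries 1, 2 and 3, against 49.4, 61.4 and 73.5 CPM in hyperplasia and 43.0, 52.0 and 48.6 CPM in wild type. The tumours lay above all wild-type ovaries, as did 10.6% of all genes tested, and above all hyperplasia samples, as did 9.54%. The share of genes above both groups was not counted. The log2 fold change of Src against wild type was 1.15 (SE 0.28, edgeR adjusted p = 0.0689). Lyn, a Src kinase of blood cells, lay the other way, with 16.7 ± 5.34 CPM in tumours and 31.1 ± 2.09 CPM in wild type (edgeR adjusted p = 0.117). Plcg1, a phospholipase recruited by such receptors, had 148 ± 17.5 CPM in tumours and 95.9 ± 23.1 CPM in wild type (edgeR adjusted p = 0.182). Of the 11 negative regulators none was called, and their median log2 fold change was -0.77 in tumours and 0.12 in hyperplasia against wild type. Dok1, a docking protein that dampens the signal, had 17.2 ± 3.404 CPM in tumours and 33.3 ± 10.4 CPM in wild type (edgeR adjusted p = 0.174). Spred2, an inhibitor of the RAS arm, had 42.5 ± 5.44 CPM in tumours and 23.5 ± 9.44 CPM in wild type (edgeR adjusted p = 0.149).

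Downstream, none of 18 genes of the PI3K, AKT and FOXO3 arm was called. Cdkn1b, the cell cycle inhibitor p27, had 96.7 ± 57.0 CPM in tumours, 161 ± 55.8 CPM in hyperplasia and 282 ± 92.7 CPM in wild type (edgeR adjusted p = 0.118 for tumours against wild type). Pik3r2, a regulatory subunit of PI3K, had 126 ± 22.5 CPM in tumours and 73.1 ± 14.8 CPM in wild type (edgeR adjusted p = 0.12). Tsc2, which restrains growth signalling below AKT, had 101.1 ± 0.779 CPM in tumours and 70.2 ± 18.7 CPM in wild type (edgeR adjusted p = 0.224).

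None of 9 genes of the RAS and MAPK arm and none of 4 STAT factors was called. Rps6ka1, a kinase activated by MAPK, had 49.5, 98.985 and 53.4 CPM in tumour libraries 1, 2 and 3, against 31.1, 35.1 and 37.1 CPM in hyperplasia and 22.3, 34.5 and 26.7 CPM in wild type. Its log2 fold change in tumours against wild type was 1.27 (SE 0.30, edgeR adjusted p = 0.0685). Stat5a was high in tumour library 2, at 152 CPM against 35.0 and 65.8 CPM in tumour libraries 1 and 3, and averaged 42.5 ± 3.23 CPM in hyperplasia and 38.5 ± 13.4 CPM in wild type. Stat3 averaged 129 ± 7.11 CPM in tumours, 204.3 ± 42.1 CPM in hyperplasia and 158 ± 68.9 CPM in wild type (edgeR adjusted p = 0.656 for tumours against wild type).

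Across the 9 libraries the level of Kitl was most alike to those of Zbtb25 (Pearson r = 0.969), Bmp2k (0.960), Dlgap1 (0.959) and Nkapd1 (0.957) among 14014 genes compared. The most opposite were Haus5 (-0.945), Psmc3ip (-0.936) and Tedc1 (-0.929). Foxl2 came 366th for Kitl, with r = 0.765. Kit was most alike to Pde8b (0.922), Cryz (0.915), Shmt1 (0.909), Elovl2 (0.895) and Ofd1 (0.891), and most opposite to Rexo2 (-0.925), Itga2b (-0.909) and Usp5 (-0.897). Kit and Kitl had r = 0.381 with each other. These are descriptions over 9 libraries of 3 groups, from log2 CPM, chosen as the extremes of many genes, and the libraries share group, scaling and 1 title stem.

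In the promoter windows of the RefSeq table around the annotated starts, the forkhead core TGTTTAC was searched on both strands because Foxl2 encodes a forkhead factor. It was found in neither the 1 window of Kitl nor the 2 of Kit (RefSeq, GRCm38.p6), and 3.65% of the 32851 windows of all genes hold it. The letters are not in these windows, which says nothing of where the factor binds.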

How the data were processed

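Per the labels' protocols, ovaries were dissected, RNA was extracted with Trizol, and stranded TruSeq mRNA libraries were made. RSEM 1.3.1, STAR 2.7.1a, Picard 2.8.1 and FastQC are named, with the build GRCm38, in the processing notes of the submitters. How counting treated strand is not given in the sources. The authors deposited RSEM expected counts per gene, which are raw and, for 25.6% of entries above 0, fractional. The TPM and FPKM values deposited by the authors are scaled for length and depth. All 55536 gene identifiers matched GENCODE M21, a release inferred from them.

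Expected counts were rounded and tested with edgeR 4.0.16 (R 4.3.3): TMM, filterByExpr (count minimum 10, total minimum 15), 1 quasi-likelihood fit of 9 libraries in 3 groups, and Benjamini-Hochberg adjustment over 16213 genes with calls at adjusted p under 0.05. The fitted coefficient of biological variation, common to all genes, was 0.432. Ratios and lengths were tested by exact permutation (scipy 1.17.1). The fit was tested on simulated data. No 2 libraries agreed within sampling noise (smallest chi-square per degree of freedom 25.0).

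The members and lists were chosen with earlier results of these data known. Besides the pair, the rule named each list member that was called or, with none called, those with the smallest p, and the genes most alike by log2(CPM + 0.5). Some genes that the rule named are not reported here. Ano1, Cyp17a1, Insl3, Lhcgr, Ptch1, Gli1, Hhip, Aldh1a1, Hdc, Fcer1a, Mrgprb2, Ms4a2, Oosp1 and Nlrp5 were added after their values were seen. So were Fshr, Inha, Gja1, Gdf9 and Tyrp1. Alternatives were DESeq2 1.42.0 and its size factors, limma-voom (limma 3.58.1), no filter, limma on log2(TPM + 1) and log2(TPM + 0.1), only the groups compared, a term for the shared title stem, leaving out each library, and, chosen after seeing the data, leaving out both libraries that stood apart. The floor of 3 counts covers counting error only.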

Additional observations from a re-analysis of the deposited data

How the results depend on the processing

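Neither Kitl nor Kit passed the threshold under any alternative run: of 142 alternative values of their log2 fold changes, 126 kept the direction and 16 reversed it. Kitl in tumour against hyperplasia reversed to -0.01 with limma-voom, -0.06 on log2(TPM + 1), -0.06 on log2(TPM + 0.1) and -0.04 with the stem term. Kit in hyperplasia against wild type reversed to 0.08 on both TPM scales, and in tumour against hyperplasia to 0.14 without both libraries that stood apart. In the order of the report (tumour and then hyperplasia over wild type, tumour over hyperplasia, all mutant samples over wild type), leaving out 1 library gave Kitl 0.19 to 1.14, 0.44 to 1.04, -0.56 to 0.39 and 0.47 to 0.94. It gave Kit -0.75 to 0.51, -0.54 to 0.61, -0.50 to 0.18 and -0.60 to 0.56. The log2 ratio of Kitl to Kit ranged over 0.86 to 1.65, 0.42 to 1.20, 0.14 to 0.76 and 0.64 to 1.43, and no alternative reversed it. The median log2 fold change of all genes in the first 3 comparisons was -0.12, 0.13 and -0.23 on log2(TPM + 1), beside 0.01, -0.003 and 0.05 in the edgeR fit.

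The background of called genes moved much more. For tumour against wild type, where 259 were called, DESeq2 called 1747, no filter 726, log2(TPM + 1) 401, log2(TPM + 0.1) 489, the stem term 0, the fit without both libraries that stood apart 8, and leaving out 1 library 0 to 404. For hyperplasia against wild type DESeq2 called 18, no filter 2, a fit of only the groups compared 3, log2(TPM + 1) 1, the fit without both libraries 2, and leaving out 1 library 0 to 3. For tumour against hyperplasia, where 30 were called, DESeq2 called 816, limma-voom 4, no filter 199, the TPM scales 97 and 187, only the groups compared 1, the stem term 12, the fit without both libraries 0, and leaving out 1 library 0 to 128. For all mutant samples, where 2 were called, DESeq2 called 591, limma-voom 198, no filter 333, the TPM scales 140 and 141, the stem term 0, and leaving out 1 library 0 to 134. A fit of only the groups compared gives no value for all mutant samples.

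Of the 131 tested genes in the lists, 14 (10.7%) were called in tumour against wild type, all of them lower, beside 1.25% of all genes tested. The counts over all genes for most of the following settings stand in the paragraph above. DESeq2 called 41, limma-voom 9, no filter 26, the stem term 0, the fit without both libraries 0, and leaving out 1 library 0 to 17. In hyperplasia against wild type only the fit of the groups compared called 1. In tumour against hyperplasia DESeq2 called 22, no filter 10, each TPM scale 3, and leaving out 1 library 0 to 8. In all mutant samples DESeq2 called 22, limma-voom 13, no filter 19, the TPM scales 11 and 8, and leaving out 1 library 0 to 11. The causes were not tested. With 3 libraries a group, the intervals of both genes span about 2 log2 units or more, which limits what could be detected.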
